A study of Mus musculus with 40 samples.

Results

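Ackr1, Ackr3, Selp, Sele, Vwf, Vcam1, Icam1 and Nr2f2 are genes of venous or activated endothelium, the cell layer that lines blood vessels. They were chosen by name, 8 of the 55536 genes in the count tables, and were selected with earlier results of these data known. Which measured values prompted the choice is not recorded, so levels and changes of the 8 genes are given as a description and each count of them is read beside the share of all genes that passed the same test. The 8 genes had at least 1 count in each of the 40 libraries, and all 8 passed the filter on low counts in the fit of each model and of both models together.

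RNA was sequenced from the left lungs of 40 C57BL/6 mice, 5 in each of 8 groups, to study what saracatinib, an inhibitor of Src family kinases, does in fibrotic lungs. In the bleomycin model the groups were bleomycin with saracatinib, bleomycin with vehicle, saline with saracatinib, and saline with vehicle, where bleomycin (1.5 U/kg, a drug that breaks DNA) or saline was given oropharyngeally. The groups of the Ad-TGFβ1 model were Ad-TGFβ1 with saracatinib, Ad-TGFβ1 with vehicle, empty vector with saracatinib, and empty vector with vehicle, where an adenovirus carrying mouse TGF-β1 under a CMV promoter, or an adenovirus without it, was given through the nose. Saracatinib (20 mg/kg) or vehicle was gavaged daily from day 10 to day 27 (one label gives day 28 as the last), all lungs were taken on day 28, and mice of both sexes were used. Routes, vectors and count tables differ between the models, so these cannot be told apart from the models. The lungs are whole tissue, so fewer cells of a type and less RNA per cell cannot be told apart in any result. Each library held 8.81 to 17.3 M counts (M, mega). Markers of the labelled tissue were present throughout: the 12 alveolar type 1 markers summed to between 2501 and 7641 CPM in every library, and the 19 pan-endothelial markers to between 2780 and 6360 CPM, with none of either list at 0 in all libraries.

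Leukocytes leave the blood mainly through small veins. There, stimulated endothelium puts selectins on its surface, which slow passing cells, and then ICAM-1 and VCAM-1, which hold them through leukocyte integrins. Ackr1 is an atypical chemokine receptor of venular endothelium that carries chemokines across the cell without G protein signalling, and Ackr3 is another such receptor that takes up CXCL12 and adrenomedullin. Vwf is the clotting factor stored with P-selectin in Weibel-Palade bodies, and Nr2f2 encodes COUP-TFII, the nuclear receptor that holds vein identity against Notch signalling. In the healthy lung most endothelium is capillary, and Vwf marks the larger vessels.

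RefSeq (GRCm38.p6) gave promoters for 6 of the 8 genes, and 3 are shown because Selp and Sele lie close together on chromosome 1 but their groups ranked in different orders in these lungs, while Icam1 was called higher in vehicle lungs with either injury. Each run is the 250 bases before the RefSeq start, read 5′ to 3′ on the gene's own strand, and capitals mark matches to 3 motifs that were chosen after the sequences had been read.
Selp, chr1:164115014-164115263, plus strand: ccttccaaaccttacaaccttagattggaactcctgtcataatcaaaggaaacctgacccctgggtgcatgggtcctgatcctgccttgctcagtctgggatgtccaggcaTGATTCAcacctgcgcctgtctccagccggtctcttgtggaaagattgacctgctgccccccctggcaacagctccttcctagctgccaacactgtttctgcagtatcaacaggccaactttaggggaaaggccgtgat
Sele, chr1:164047984-164048233, plus strand: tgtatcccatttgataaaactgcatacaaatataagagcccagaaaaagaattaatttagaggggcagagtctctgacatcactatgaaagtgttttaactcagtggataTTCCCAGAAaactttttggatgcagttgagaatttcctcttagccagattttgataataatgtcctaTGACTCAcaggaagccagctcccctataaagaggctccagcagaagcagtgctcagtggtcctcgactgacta
Icam1, chr9:21015690-21015939, plus strand: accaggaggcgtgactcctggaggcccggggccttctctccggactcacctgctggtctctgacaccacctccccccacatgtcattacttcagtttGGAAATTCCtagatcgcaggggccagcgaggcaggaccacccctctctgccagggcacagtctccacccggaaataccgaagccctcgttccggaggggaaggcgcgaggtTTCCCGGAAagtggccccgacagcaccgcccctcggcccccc
The motifs were GGAAATTCC, a form of the NF-κB site, TTCNNNGAA, a STAT site, and TGANTCA, an AP-1 site, and each was searched on both strands. The NF-κB form begins 153 bases before the start of Icam1 and is held by 94 of 32851 promoters (0.286%). Only this exact form was searched, so a promoter without the mark may still hold other forms of the site. The form is the same as the letters in Icam1 and was chosen after they had been read. Its share of promoters thus does not mark Icam1 out. The STAT letters begin 140 bases before the start of Sele and 42 before that of Icam1, and 7.02% of promoters hold them. The AP-1 letters begin 139 bases before the start of Selp and 73 before that of Sele, and 6.75% of promoters hold them. The matches do not overlap in these windows. The promoters of Ackr1, Ackr3 and Nr2f2, which are not shown, held no match to any of these motifs. A match describes letters and is no evidence of binding.

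In lungs without saracatinib, both injuries raised Ackr3 and Icam1, Ackr1 and Selp passed the test in bleomycin lungs, and Vcam1 moved in opposite directions in the 2 models. A gene is said to rise or fall, or to be called, where edgeR's quasi-likelihood test gave an adjusted p under 0.05 over all genes. With bleomycin against saline 5 of the 8 genes were called, 4 higher and 1 lower, where 40.9% of all 18846 genes tested were called. With Ad-TGFβ1 against empty vector 3 of the 8 were called, all higher, where 25.7% of 18834 genes were. Saracatinib against vehicle called 2 of the 8 in bleomycin lungs, both lower, against a background of 14.1%, and 0 of 8 in Ad-TGFβ1 lungs, against 0.0956%. In the Ad-TGFβ1 lungs 3 of the 8 had an unadjusted p under 0.05, DESeq2 called 0 and limma voom 1. These shares of 8 genes are small numbers, and the list was not tested as a list. Counts in the other gene lists are likewise read against the share of all genes called in the same comparison.

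**Figure D1:**
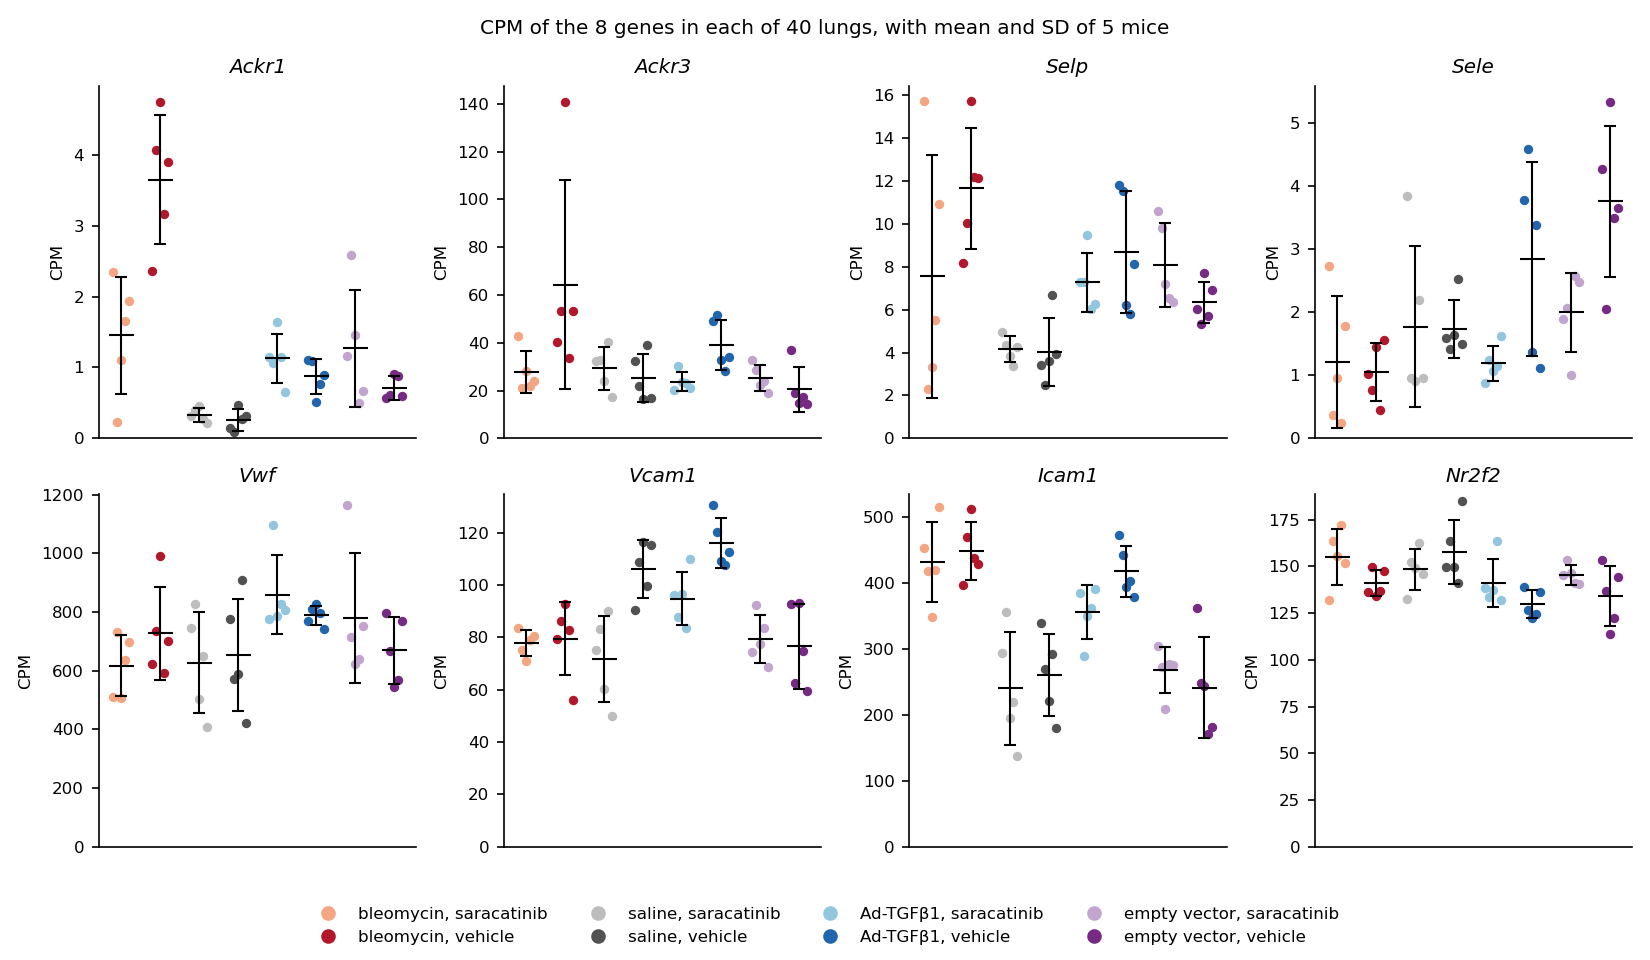
Counts scaled for library size (CPM, vertical axis from 0) of the 8 genes in each lung, 1 point per mouse, with horizontal bars for the mean and error bars for the SD of 5 mice in each of 8 groups. Ackr1 is highest in bleomycin lungs with vehicle (3.65 CPM), and 1 bleomycin lung with vehicle stands at 141 CPM of Ackr3.

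**Figure D2:**
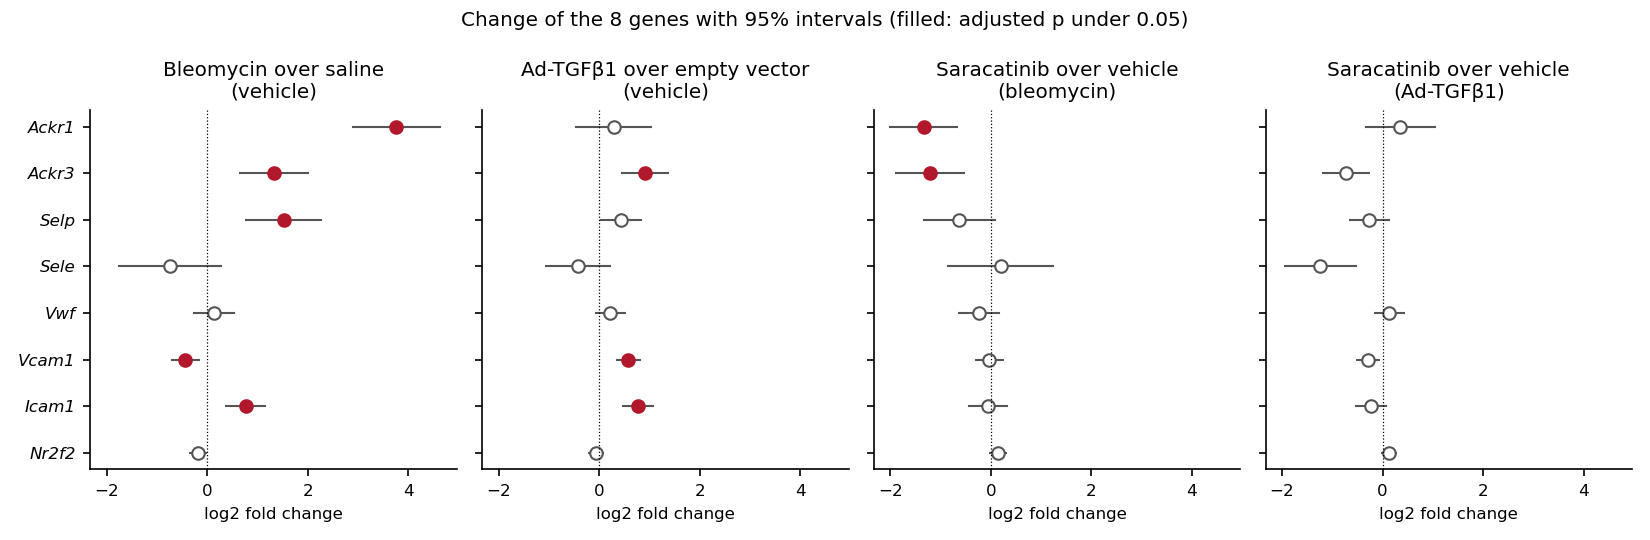
Log2 fold change (horizontal axis) of each gene in 4 comparisons, with approximate 95% intervals and filled points where the adjusted p was under 0.05. Vcam1 lies left of 0 with bleomycin (-0.44) and right of 0 with Ad-TGFβ1 (0.58), while Icam1 lies right of 0 in both (0.76 and 0.78).

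Per kilobase of exon, the 8 genes spanned a wide range of levels over the 40 lungs. Icam1 had the highest mean, 76.5 CPM per kilobase, followed by Vwf at 44.5, Nr2f2 at 16.7, Vcam1 at 9.90 and Ackr3 at 9.53. Selp, Ackr1 and Sele were the low ones, at 1.64, 0.861 and 0.669 CPM per kilobase. Counts per library were 1 to 69 for Ackr1 and 3 to 65 for Sele, so both carry large counting error, while Icam1 had 1300 to 8122 counts and Vwf 3837 to 18987.

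Ackr1 (chromosome 1, 173331886 to 173333750, minus strand, GRCm38), the venular receptor that binds many inflammatory chemokines, showed the largest change of the 8 genes with bleomycin. In bleomycin lungs with vehicle it stood at 2.37, 4.07, 4.74, 3.16 and 3.90 CPM, and in saline lungs with vehicle at 0.151, 0.0832, 0.468, 0.272 and 0.319 CPM. The groups did not overlap, and the log2 fold change was 3.76 ± 0.44 (SE, edgeR adjusted p = 3.27e-06). The saline lungs held only 1 to 6 counts each, 15 in all, so the size of the fold is loosely fixed, with an interval of 2.89 to 4.63. Bleomycin lungs with saracatinib held 2.35, 0.224, 1.11, 1.65 and 1.94 CPM, all below every bleomycin lung with vehicle. Saracatinib lowered Ackr1 there by a log2 change of -1.33 ± 0.34 (adjusted p = 0.014), and all 20 fits that left out 1 library kept the call. Some of these fits left out a saline lung, which is outside the comparison. Both comparisons share the bleomycin lungs with vehicle.

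Between bleomycin and saline lungs that both had saracatinib, Ackr1 was higher by 2.09 ± 0.46 (adjusted p = 0.00567), and saline lungs with saracatinib held 0.310, 0.398, 0.453, 0.274 and 0.213 CPM. The ranges of these groups overlapped through the bleomycin lung at 0.224 CPM, which had 3 counts. In that comparison 2 of the 8 genes were called, Ackr1 and Icam1, against a background of 16.0%. In saline lungs the drug gave 0 calls among the 8, against 0.00531% of all genes, and 1 of the 8 had an unadjusted p under 0.05, with 0 calls by DESeq2 and 0 by limma voom. Whether the drug's change in bleomycin lungs differed from that in saline lungs was tested as an interaction, which for Ackr1 was -1.67 ± 0.71 and did not pass (adjusted p = 0.216).

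In the Ad-TGFβ1 model edgeR called Ackr1 in none of the comparisons, with an unadjusted p under 0.05 for saracatinib in empty vector lungs (0.83 ± 0.37, adjusted p = 0.444). Ad-TGFβ1 lungs with vehicle held 1.11, 1.09, 0.512, 0.773 and 0.887 CPM and empty vector lungs with vehicle 0.565, 0.615, 0.903, 0.873 and 0.594 CPM. The groups overlapped, with a difference of 0.29 ± 0.38 (adjusted p = 0.604). Ad-TGFβ1 lungs with saracatinib held 1.14, 1.06, 1.64, 1.15 and 0.650 CPM, and empty vector lungs with saracatinib 1.16, 2.58, 1.45, 0.496 and 0.666 CPM. The order of the 8 group means placed bleomycin with vehicle at the top with no overlap to the next group, then 5 groups that each overlapped the next, down to empty vector with vehicle, whose lungs all lay above those of both saline groups. The bleomycin injury exceeded the Ad-TGFβ1 injury by a log2 difference of 3.47 ± 0.62 (adjusted p = 1.85e-04), in a comparison that called 2 of the 8 genes and 15.0% of all 19529 genes. Exons of Ackr1 overlap exons of Cadm3 on the same strand, and Cadm3 had 1260 counts over the 40 libraries, so reads of the shared bases are uncertain.

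Of 9 tested chemokines that Ackr1 binds, 3 were higher and 2 lower with bleomycin in vehicle lungs, where 40.9% of all genes were called. Ccl2, which draws monocytes, rose by 2.11 ± 0.52, Ccl7 by 1.53 ± 0.57 and Ccl17, a ligand of Th2 cells, by 1.33 ± 0.26. Cxcl5, a neutrophil chemokine, fell by 1.73 on the log2 scale. With Ad-TGFβ1, 2 of 8 tested were higher, of which Ccl5 rose by 1.21 ± 0.33 and Ccl17 by 0.71 ± 0.22, and 2 were lower, the platelet chemokines Ppbp (-1.33 ± 0.37) and Pf4 (-0.83 ± 0.23). The share of all genes called with Ad-TGFβ1 was 25.7%.

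Ackr3 (chromosome 1, 90203980 to 90216751, plus strand), which removes CXCL12 from the surroundings of the cell, rose in both injuries and in bleomycin lungs fell with saracatinib, and 1 library weighs on the bleomycin values. Bleomycin lungs with vehicle held 40.3, 53.1, 141, 33.4 and 53.2 CPM, and saline lungs with vehicle 32.3, 21.8, 16.5, 39.0 and 16.9 CPM. The lung at 141 CPM, the third replicate, stands far above the other 4, and the lowest bleomycin lung lies within the range of the saline lungs. The change was 1.32 ± 0.35 (edgeR adjusted p = 0.00497), and 0.82 without the third replicate (adjusted p = 0.0253). Bleomycin lungs with saracatinib held 42.7, 21.1, 28.3, 22.1 and 24.0 CPM, of which 1 lies among the lungs with vehicle. The drug's change was -1.21 ± 0.34 (adjusted p = 0.0239). Without the third bleomycin lung with vehicle it was -0.71 (adjusted p = 0.118), and the call was also lost without any 1 of bleomycin lungs 2, 3, 4 and 5 with saracatinib, where the change was -1.22 to -1.12 and the adjusted p 0.0524 to 0.0728. It was lost as well without the low-count filter (adjusted p = 0.0787) and in a fit of the compared groups alone (adjusted p = 0.0672).

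**Figure D3:**
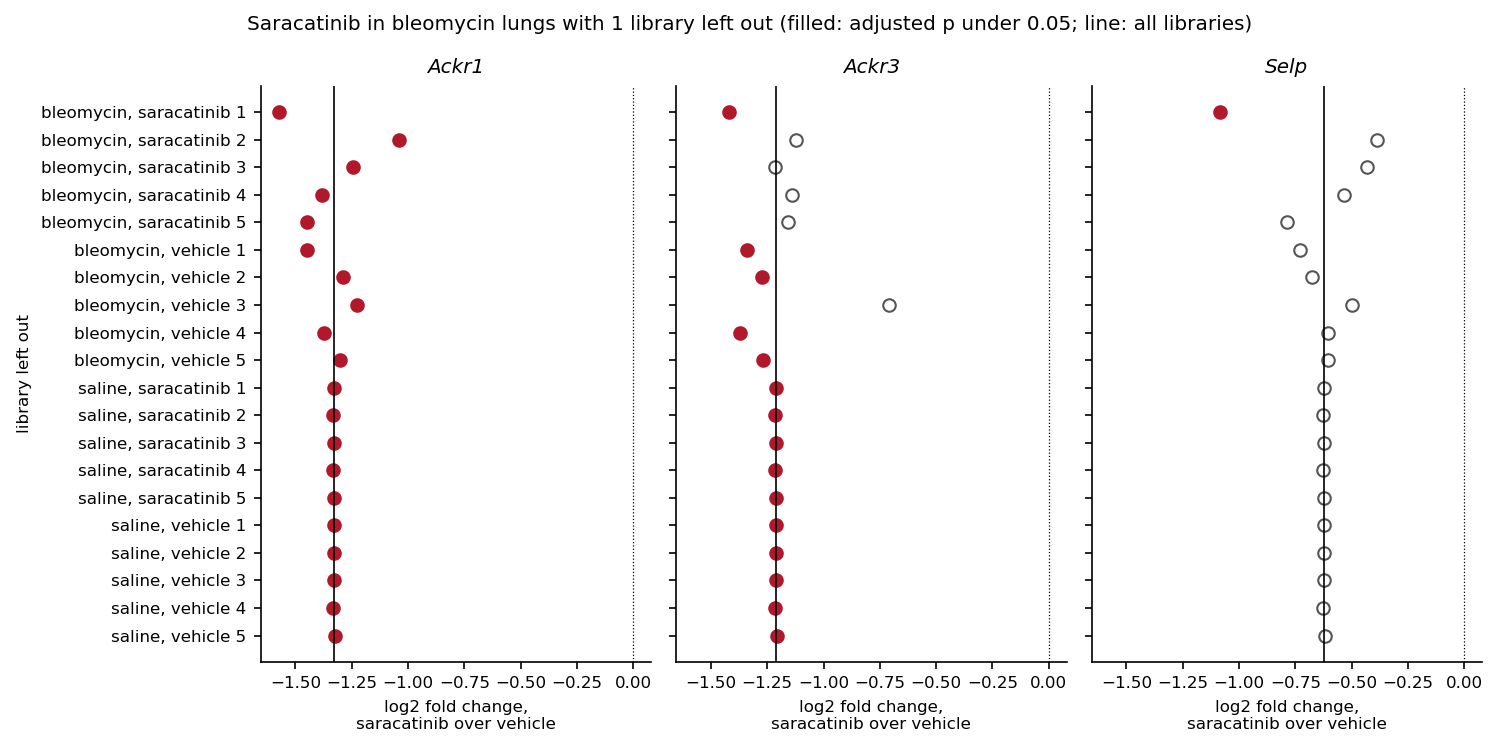
Log2 fold change of saracatinib over vehicle in bleomycin lungs (horizontal axis) for Ackr1, Ackr3 and Selp in the 20 fits that each left out 1 library (vertical axis), with filled points at an adjusted p under 0.05 and a line at the value of all libraries. Ackr1 is filled in all 20, Ackr3 is open in 5, and Selp is filled in 1.

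Ad-TGFβ1 lungs with vehicle held 49.1, 51.5, 32.9, 28.1 and 34.2 CPM of Ackr3, against 36.8, 18.9, 14.9, 17.3 and 14.5 CPM in empty vector lungs with vehicle. The highest empty vector lung, the first replicate, is the 1 that overlaps. The change was 0.92 ± 0.23 (adjusted p = 0.0078). Ad-TGFβ1 lungs with saracatinib held 20.4, 30.4, 23.6, 23.0 and 21.2 CPM, of which 1 exceeded the lowest lung with vehicle. The drug's change there, -0.72 ± 0.23, did not pass (adjusted p = 0.416), though limma voom with quality weights called it at -0.79 (adjusted p = 0.0402). In lungs that had saracatinib, 0 of 8 genes were called between Ad-TGFβ1 and empty vector, where 2.54% of all genes were, with 2 of the 8 at an unadjusted p under 0.05, 0 called by DESeq2 and 1 by limma voom. In the order of the 8 groups every neighbouring pair overlapped for Ackr3.

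Of 7 tested genes of the CXCL12 and adrenomedullin axis around Ackr3, 2 were higher and 2 lower with bleomycin, where 40.9% of all genes were called. Cxcl12, the shared ligand of Ackr3 and Cxcr4, rose by 0.87 ± 0.17, and Adm, which encodes adrenomedullin, fell by 0.88 on the log2 scale. The arrestin gene Arrb2 rose by 0.56 ± 0.08 and the receptor kinase gene Grk5 fell by 0.59 on the log2 scale. With Ad-TGFβ1, 2 of 8 were higher and 1 lower, where 25.7% of all genes were called. Adm again fell, by 0.94 on the log2 scale. In bleomycin lungs saracatinib moved Arrb2 by -0.36 ± 0.08 and Grk5 by 0.31 ± 0.08, and no other gene of the axis was called there.

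Selp (chromosome 1, 164115264 to 164150026, plus strand) encodes P-selectin, which endothelium and platelets store and bring to the surface within minutes of a stimulus. In bleomycin lungs with vehicle Selp was at 8.20, 10.0, 15.8, 12.2 and 12.1 CPM, and in saline lungs with vehicle at 3.40, 2.49, 3.59, 6.70 and 3.94 CPM. The groups did not overlap, and Selp rose by 1.52 ± 0.38 (edgeR adjusted p = 0.00375). Bleomycin lungs with saracatinib spread widely, at 15.8, 2.31, 3.32, 5.50 and 10.9 CPM, from below the lowest saline lung to the level of the highest bleomycin lung. The drug's change, -0.63 ± 0.36, did not pass (adjusted p = 0.264), but passed without bleomycin lung 1 with saracatinib, the lung at 15.8 CPM (-1.08, adjusted p = 0.0323). Between bleomycin and saline lungs with saracatinib the change of 0.83 ± 0.39 did not pass either (adjusted p = 0.15), and passed without bleomycin lung 2 with saracatinib (1.08, adjusted p = 0.0409).

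Ad-TGFβ1 lungs with vehicle held 11.8, 11.5, 6.23, 5.80 and 8.13 CPM of Selp, against 6.05, 5.33, 7.71, 5.72 and 6.93 CPM in empty vector lungs with vehicle. The groups overlapped, and the change of 0.44 ± 0.20 missed the threshold (adjusted p = 0.116), while without Ad-TGFβ1 lung 4 with vehicle it was 0.56 (adjusted p = 0.0492). The difference between the injuries, bleomycin minus Ad-TGFβ1, was 1.08 ± 0.45 and did not pass (adjusted p = 0.102). It passed without saline lung 4 with vehicle (1.34, adjusted p = 0.0467), and in a fit of the 4 groups of the comparison alone (1.09, adjusted p = 0.0384). In the order of the 8 group means for Selp, both saline groups were lowest, and 6 of 7 neighbouring pairs overlapped. The exception was empty vector with vehicle above saline with saracatinib.

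Sele (chromosome 1, 164048234 to 164057677, plus strand) encodes E-selectin, which unlike P-selectin is made anew on stimulation. Its gene lies near Selp, and in bleomycin lungs with vehicle its mean was the lowest of the 8 groups while that of Selp was the highest. Sele was at 1.01, 0.768, 1.45, 0.452 and 1.56 CPM in bleomycin lungs with vehicle, and at 1.59, 1.41, 1.64, 2.54 and 1.49 CPM in saline lungs with vehicle. The groups overlapped, and the change of -0.73 ± 0.52 did not pass (adjusted p = 0.27). Ad-TGFβ1 lungs with saracatinib held 0.880, 1.25, 1.06, 1.15 and 1.62 CPM, against 3.79, 4.59, 1.37, 3.38 and 1.11 CPM in Ad-TGFβ1 lungs with vehicle. Of the lungs with vehicle 3 were high and 2 lay within the range of the drug. That change was -1.24 ± 0.36 and did not pass (adjusted p = 0.363), and in empty vector lungs the drug's change was -0.94 ± 0.34 (adjusted p = 0.401). Every neighbouring pair of groups overlapped for Sele.

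Icam1 (chromosome 9, 21015985 to 21028817, plus strand), the ligand of the leukocyte integrins LFA-1 and Mac-1, rose in both injuries. In the alveolus Icam1 is also made by type 1 epithelial cells. Bleomycin lungs with vehicle held 397, 470, 513, 438 and 429 CPM and saline lungs with vehicle 340, 269, 221, 293 and 181 CPM. Ad-TGFβ1 lungs with vehicle held 473, 444, 394, 403 and 379 CPM, against 363, 248, 244, 171 and 182 CPM in empty vector lungs with vehicle. Neither pair of groups overlapped, with changes of 0.76 ± 0.20 (edgeR adjusted p = 0.00436) and 0.78 ± 0.15 (adjusted p = 0.00157). The difference between the injuries was -0.01 ± 0.26, with an interval of -0.52 to 0.50 (adjusted p = 0.991). With the pan-endothelial score, the mean log2 CPM of 19 markers, as a covariate, it was 0.44 (adjusted p = 0.158), from changes of 1.03 with bleomycin and 0.60 with Ad-TGFβ1. The score was measured in the same lungs after injury and drug, and can itself change with them. Fits that hold the score constant thus do not give the whole change. In lungs with saracatinib Icam1 was still higher with bleomycin than with saline, by 0.82 ± 0.20 (adjusted p = 0.00912), from 454, 418, 349, 421 and 516 CPM in bleomycin lungs against 295, 357, 195, 220 and 138 CPM in saline lungs, and those groups overlapped in 1 lung each.

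Saracatinib moved Icam1 in bleomycin lungs by -0.06 ± 0.20, with an interval of -0.44 to 0.32 (adjusted p = 0.881). In Ad-TGFβ1 lungs, which held 385, 290, 351, 363 and 392 CPM with the drug, the change was -0.23 ± 0.15 (adjusted p = 0.691). Between Ad-TGFβ1 and empty vector lungs with saracatinib the change of 0.41 ± 0.15 did not pass (adjusted p = 0.174), but passed with limma voom (0.43, adjusted p = 0.0414), with the pan-endothelial score as a covariate (0.43, adjusted p = 0.0274) and without empty vector lung 1 with vehicle (0.41, adjusted p = 0.0477). Of all genes 40.9% were called with bleomycin and 25.7% with Ad-TGFβ1 in vehicle lungs. Alveolar type 1 markers were called higher in 2 of 12 genes with bleomycin, Pdpn (0.96 ± 0.26) and Aqp5 (0.86 ± 0.17), and in 4 of 12 with Ad-TGFβ1. Their sum ran from 5069 to 6328 CPM in bleomycin lungs and 3340 to 6742 CPM in saline lungs with vehicle, and from 5288 to 6184 CPM in Ad-TGFβ1 lungs and 3351 to 6624 CPM in empty vector lungs with vehicle. Their part in the Icam1 result was not tested.

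Vcam1 (chromosome 3, 116109949 to 116129688, minus strand), the ligand of the integrin VLA-4 on lymphocytes and monocytes, went in opposite directions in the 2 injuries. Bleomycin lungs with vehicle held 79.3, 86.4, 93.0, 82.7 and 56.2 CPM and saline lungs with vehicle 90.5, 109, 117, 99.6 and 116 CPM. The highest bleomycin lung lies just above the lowest saline lung, and Vcam1 fell by 0.44 ± 0.14 on the log2 scale (adjusted p = 0.0142). Ad-TGFβ1 lungs with vehicle held 131, 120, 109, 108 and 113 CPM, against 92.9, 62.5, 93.2, 74.8 and 59.4 CPM in empty vector lungs with vehicle. Those groups did not overlap, and Vcam1 rose by 0.58 ± 0.12 (adjusted p = 0.00161). The bleomycin injury minus the Ad-TGFβ1 injury was -1.02 ± 0.19 (adjusted p = 2.68e-04).

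The saline lungs with vehicle were themselves high in Vcam1 among the controls. Saline lungs with saracatinib held 75.2, 83.3, 60.2, 90.0 and 50.1 CPM, all below every saline lung with vehicle, and the drug's change there was -0.57 ± 0.14. It did not pass over all genes (adjusted p = 0.293), at an unadjusted p of 4.93e-04. Bleomycin lungs with saracatinib, at 83.7, 75.3, 70.9, 79.2 and 80.5 CPM, did not differ past the threshold from those with vehicle (-0.03 ± 0.14, adjusted p = 0.919) or from saline lungs with saracatinib (0.10 ± 0.14, adjusted p = 0.675). The interaction of drug and bleomycin, 0.54 ± 0.19, did not pass (adjusted p = 0.142). Ad-TGFβ1 lungs with saracatinib held 96.3, 87.9, 96.7, 83.5 and 110 CPM, and the drug's change of -0.29 ± 0.11 did not pass (adjusted p = 0.494).

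**Figure D4:**
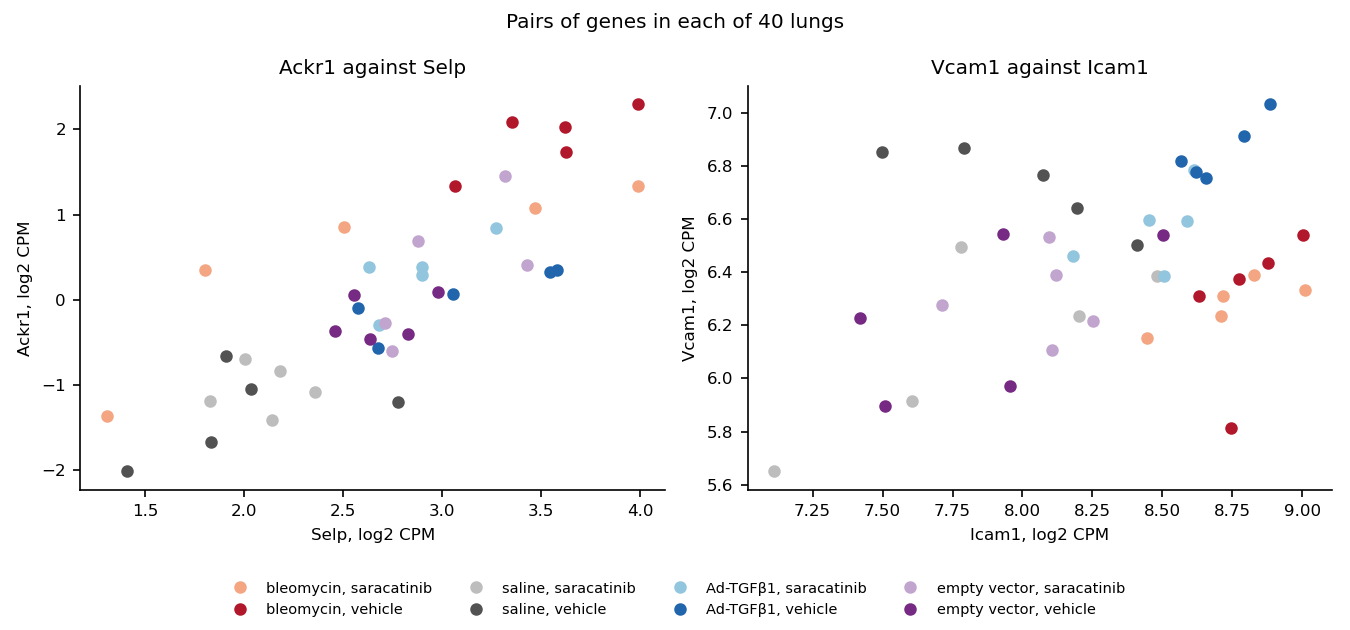
Log2 CPM of Ackr1 against Selp (left) and of Vcam1 against Icam1 (right) in each of 40 lungs, colored by group. Ackr1 and Selp lie along 1 rising band, with bleomycin lungs with vehicle at its upper end, while saline lungs with vehicle stand high in Vcam1 at low Icam1.

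Over the 40 libraries the log2 CPM of Ackr1 and Selp correlated at r = 0.82, the highest of the 28 pairs, and at r = 0.72 after each group's mean was taken out. Vcam1 and Icam1 correlated at 0.35 and within groups at 0.44, and Selp and Sele at 0.21 and within groups at 0.53. These values are descriptions over libraries that share groups and depth. The genes most like each member, of 17679 compared over the 40 libraries, differed from member to member. Ackr1 was closest to Fscn1 (r = 0.88), Ildr2 and Malt1, Ackr3 to St3gal1 (0.89), Jam2 and Tmem252, and Selp to B4galt5 (0.85), Tmem173 and Ninj1. Sele had the weakest neighbours, Siah2 (0.71), Gm42727 and Ccnt1. Vwf was closest to Slc6a2 (0.91), Ntn1 and Kdsr, Vcam1 to Tnfsf13b (0.83), Cpq and C1s1, and Nr2f2 to Lrp4 (0.75), Vegfd and Cdo1. Icam1 had the closest of all, with Lamb3 at 0.97 and Serpinb9 at 0.96.

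Vwf (chromosome 6, 125546774 to 125686679, plus strand) ranged from 408 to 1163 CPM over the 40 lungs and was called in none of the 13 comparisons by edgeR without a covariate, where its smallest unadjusted p was 0.148. Its medians were 701 CPM in bleomycin and 588 CPM in saline lungs with vehicle, and 795 CPM in Ad-TGFβ1 and 665 CPM in empty vector lungs with vehicle. The changes were 0.13 ± 0.20 with bleomycin (adjusted p = 0.628) and 0.22 ± 0.15 with Ad-TGFβ1 (adjusted p = 0.283), which limma voom put at 0.35 (adjusted p = 0.0383). With the pan-endothelial score as a covariate the bleomycin change was 0.47 (adjusted p = 0.00719) and the drug's change in bleomycin lungs -0.48 (adjusted p = 0.0145), against -0.24 ± 0.20 without it (adjusted p = 0.473). That score was 7.06 ± 0.07 in bleomycin lungs and 7.35 ± 0.31 in saline lungs with vehicle (SD, n = 5 each). Because it was measured after injury and drug, the covariate values of Vwf do not give the whole change either. Of 15 tested genes of Weibel-Palade bodies and Vwf processing, 5 were higher and 1 lower with bleomycin, close to the 40.9% called among all genes. Those higher included the granule membrane gene Cd63 (1.12 ± 0.12), the plasminogen activator Plat (0.93 ± 0.25) and the Vwf partner F8 (0.64 ± 0.15). Cd63 and Plat were called lower with saracatinib in bleomycin lungs, at -0.74 ± 0.12 and -0.88 ± 0.25.

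Nr2f2 (chromosome 7, 70351944 to 70366735, minus strand) was the steadiest of the 8 genes, from 114 to 185 CPM over all lungs. Bleomycin lungs with vehicle had a median of 137 CPM and saline lungs with vehicle 150 CPM, a change of -0.18 ± 0.08 that did not pass (adjusted p = 0.0696). The change with Ad-TGFβ1 was -0.06 ± 0.07, with an interval of -0.20 to 0.08. An antisense transcript, B130024G19Rik, overlaps its exons and had 11638 counts over the 40 libraries. Of 20 genes around Nr2f2 and Notch that set vein or artery fate, 1 was higher and 5 lower with bleomycin, where 40.9% of all genes were called. Nrp2, a coreceptor of veins and lymphatics, rose by 0.70 ± 0.10, while Nr2f1, the close relative of Nr2f2, fell by 1.09 on the log2 scale. The arterial ligand Efnb2 and the endothelial receptor Notch4 were lower as well, at -0.68 ± 0.17 and -0.59 ± 0.15. With Ad-TGFβ1 3 of the 20 were higher and 3 lower, with Heyl up by 0.74 ± 0.17 and Jag1 at -0.48 ± 0.12. Of all genes 25.7% were called there.

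Other venous and systemic endothelial genes did not move as 1 block with bleomycin. Of 17 tested, 6 were higher and 5 lower, with a median of 0.01, against -0.03 over all genes, of which 40.9% were called. Lrg1, a secreted glycoprotein of venules, rose by 2.80 ± 0.26, Tmem252 by 2.13 ± 0.44, the vessel wall collagen Col15a1 by 1.30 ± 0.23 and Bst1 by 1.28 ± 0.24. With Ad-TGFβ1 10 were higher and 2 lower, at a median of 0.38 against -0.01, among them Tmem252 (1.57 ± 0.45), Bst1 (1.27 ± 0.22), Lrg1 (1.25 ± 0.23) and the calcification inhibitor Mgp (1.18 ± 0.15). There 25.7% of all genes were called. In bleomycin lungs saracatinib called 5 of the 17 lower and 0 higher, including Tmem252 (-1.57 ± 0.43), Col15a1 (-1.18 ± 0.23) and Lrg1 (-0.97 ± 0.24). The share of all genes called for the drug there was 14.1%.

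Genes that NF-κB and cytokines raise in endothelium and other cells were higher in 11 and lower in 2 of 18 tested with bleomycin, and higher in 6 and lower in 1 of 17 with Ad-TGFβ1. Of all genes 40.9% were called with bleomycin, 25.7% with Ad-TGFβ1 and 14.1% for saracatinib in bleomycin lungs. Lcn2, an iron-binding protein, rose by 2.63 ± 0.26 with bleomycin and 1.84 ± 0.30 with Ad-TGFβ1. The cytokine feedback gene Socs3 rose by 1.81 ± 0.32 and 0.55 ± 0.19, and tissue factor, F3, by 0.82 ± 0.20 with bleomycin. In bleomycin lungs saracatinib lowered Socs3 (-1.10 ± 0.32), F3 (-0.85 ± 0.20) and Il1r1 (-0.35 ± 0.10) and called 2 of the 18 higher, of which Traf1 changed by 0.70 ± 0.14. Leukocyte genes whose products meet these selectins and adhesion molecules were higher in 12 and lower in 1 of 18 with bleomycin, and higher in 9 of 18 with Ad-TGFβ1. Among them were Itgb2 (1.69 ± 0.20 and 0.91 ± 0.15), the shared chain of the integrins that bind ICAM-1, and Selplg (1.21 ± 0.14 and 0.71 ± 0.16), the ligand of P-selectin. The other endothelial adhesion genes gave 3 higher and 2 lower of 13 with bleomycin, where 40.9% of all genes were called. Among them Jam2 (1.12 ± 0.17) and Cd34 (0.78 ± 0.13) were up and Icam2 (-0.69 ± 0.19) was down.

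Capillary markers were mostly lower with bleomycin. The shares of all genes called were 40.9% with bleomycin, 25.7% with Ad-TGFβ1 and 14.1% for saracatinib in bleomycin lungs. Of 20 lung capillary markers, 14 were lower and 1 higher, at a median of -0.68, including Fibin (-1.87 ± 0.27), the endothelin receptor gene Ednrb (-1.81 ± 0.28) and Hpgd (-1.32 ± 0.36), and of 19 pan-endothelial markers 6 were lower and 0 higher, at a median of -0.31. The sums of these lists overlapped between groups, at 3371 to 4085 CPM of capillary markers in bleomycin lungs and 3697 to 6234 CPM in saline lungs with vehicle, and at 3090 to 3793 CPM of pan-endothelial markers in bleomycin lungs and 3238 to 5767 CPM in saline lungs with vehicle. Of 12 arterial markers 4 were higher and 4 lower. Saracatinib in bleomycin lungs called 5 capillary markers higher and 0 lower, among them Glp1r (1.18 ± 0.28) and Ednrb (1.03 ± 0.28). Of 9 lymphatic markers tested 8 were higher with bleomycin, at a median of 1.10, with Prox1, the regulator of lymphatic identity, at 1.28 ± 0.18 and Reln at 1.25 ± 0.14, and 4 were lower under saracatinib, with Prox1 at -0.59 ± 0.17. The lymphatic sum ran from 409 to 762.2 CPM in bleomycin lungs and 257 to 478 CPM in saline lungs with vehicle. Some lists share genes, such as Pdpn in the lymphatic and alveolar type 1 lists and Cxcl12 in the capillary and arterial lists. The lists are thus not separate readings of cell types. With Ad-TGFβ1, 3 capillary, 1 pan-endothelial and 3 of 8 lymphatic markers were higher, where 25.7% of all genes were called. None of these lists had a gene called lower.

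**Figure D5:**
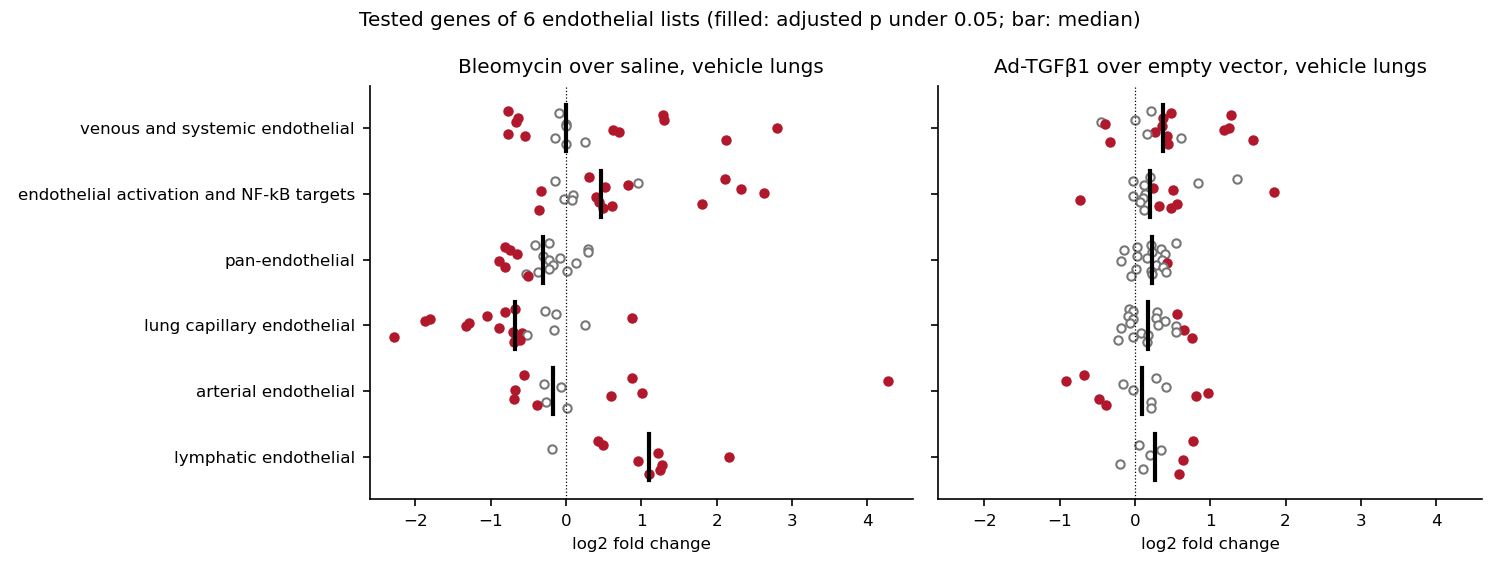
Log2 fold change (horizontal axis) of each tested gene of 6 endothelial lists with bleomycin (left) and with Ad-TGFβ1 (right) in vehicle lungs, 1 point per gene, filled at an adjusted p under 0.05, with a bar at the list's median. The capillary median is -0.68 on the left and 0.17 on the right, and the lymphatic median 1.10 and 0.27.

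Markers of blood cells also moved with the groups, and their part in the results was not tested. Their counts stand beside shares over all genes of 40.9% with bleomycin, 25.7% with Ad-TGFβ1 and 14.1% for saracatinib in bleomycin lungs. Platelets also hold Selp. The 12 platelet markers tested, of 13, were lower in 6 with bleomycin, with sums of 28.1 to 38.7 CPM in bleomycin lungs and 41.3 to 72.2 CPM in saline lungs with vehicle. With Ad-TGFβ1 10 of 12 were lower, at 35.8 to 104 CPM against 67.4 to 156 CPM in empty vector lungs with vehicle. Macrophage markers were higher in 9 of 12 with bleomycin and in 10 of 12 with Ad-TGFβ1, with Trem2 at 3.51 ± 0.24 and Gpnmb at 3.15 ± 0.27 in the bleomycin lungs. Their sums were 1177 to 1779 CPM in bleomycin lungs and 418 to 614 CPM in saline lungs with vehicle, and 847 to 972 CPM in Ad-TGFβ1 lungs and 393 to 720 CPM in empty vector lungs with vehicle. Under saracatinib 7 of the 12 were lower in bleomycin lungs, among them C1qa (-1.05 ± 0.20). Lymphocyte markers were higher in 6 of 12 with bleomycin, with Ctla4 (3.19 ± 0.50) and Foxp3 (2.87 ± 0.36), and in 3 of 12 with Ad-TGFβ1. Their sums were 68.8 to 95.9 CPM in bleomycin lungs and 39.2 to 69.0 CPM in saline lungs with vehicle, and 141 to 180 CPM in Ad-TGFβ1 lungs and 77.1 to 198 CPM in empty vector lungs with vehicle.

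Markers of other cells of the lung wall also differed between the groups. Their part in the results of Ackr1, Ackr3 and Vcam1 was not tested. Over all genes 40.9% were called with bleomycin, 25.7% with Ad-TGFβ1 and 14.1% for saracatinib in bleomycin lungs. Of 13 fibroblast markers 6 were higher and 6 lower with bleomycin, with the collagen gene Col1a1 at 1.71 ± 0.22 and Inmt at -2.16 ± 0.27, and saracatinib in bleomycin lungs called 2 higher and 5 lower, with Col1a1 at -1.40 ± 0.22. The fibroblast sum was 6346 to 12010 CPM in bleomycin lungs with vehicle, against 4600 to 5615 CPM in saline lungs with vehicle, and was 4218 to 5437 CPM in bleomycin lungs with saracatinib. Bleomycin lungs with vehicle thus lay above both other groups in this sum. With Ad-TGFβ1 3 fibroblast markers were higher and 1 lower. Their sums were 4213 to 5086 CPM in Ad-TGFβ1 lungs and 3248 to 3914 CPM in empty vector lungs with vehicle. These sums did not overlap. Mesothelial markers were lower in 5 and higher in 1 of 10 with bleomycin, at a median of -0.83, and lower in 3 with Ad-TGFβ1. Their sums were 268 to 310.2 CPM in bleomycin lungs and 266 to 439.7 CPM in saline lungs with vehicle, and 259 to 337 CPM in Ad-TGFβ1 lungs and 355 to 389 CPM in empty vector lungs with vehicle. Smooth muscle and pericyte markers were lower in 5 and higher in 1 of 12 with either injury, at medians of -0.49 with bleomycin and -0.37 with Ad-TGFβ1. They summed to 1171 to 1812 CPM in bleomycin lungs and 1626 to 2621 CPM in saline lungs with vehicle, and to 786 to 1325 CPM in Ad-TGFβ1 lungs and 1100 to 1789 CPM in empty vector lungs with vehicle. Vcam1 was lower with bleomycin and higher with Ad-TGFβ1, and the part of these cells in either change was not tested.

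The 2 kinds of control lung differed in these genes as well. Between empty vector and saline lungs with vehicle 4 of the 8 genes were called, 2 higher and 2 lower, where 26.2% of all genes were. Ackr1 was higher by 1.43 ± 0.51 (edgeR adjusted p = 0.0342), with no overlap between groups, and Sele by 1.12 ± 0.43 (adjusted p = 0.0497), from 4.28, 2.05, 5.33, 3.49 and 3.66 CPM in empty vector lungs against the saline values above. Vcam1 fell by 0.47 ± 0.13 and Nr2f2 by 0.23 ± 0.08 on the log2 scale (adjusted p = 0.00795 and 0.022). The call of Sele, which lay at the threshold, was lost in 31 of 40 fits that left out 1 library. Most of these left out a lung outside the compared groups, and over the 40 fits its change was 0.943 to 1.296. The call of Ackr1 was lost in 5 of the fits and that of Nr2f2 in 2. With the pan-endothelial score as a covariate only Vcam1 and Vwf passed, with Ackr1 at 1.06 (adjusted p = 0.154). In the same comparison 12 of 12 lymphocyte and 12 of 12 platelet markers were higher, with lymphocyte sums of 77.1 to 198 CPM in empty vector lungs and 39.2 to 69.0 CPM in saline lungs with vehicle, and platelet sums of 67.4 to 156 CPM in empty vector lungs and 41.3 to 72.2 CPM in saline lungs. Their part in these differences was not tested.

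Differences between drug effects were called for none of the 8 genes by edgeR with all libraries and no covariate, while limma voom and the covariate fit called 1 each. The interaction of saracatinib with bleomycin called 0 of 8 against a background of 1.06%, with 3 of 8 at an unadjusted p under 0.05, and 0 calls by DESeq2 and by limma voom. The interaction for Ackr3 was -1.42 ± 0.49 (edgeR adjusted p = 0.131). The interaction of saracatinib with Ad-TGFβ1 called 0 of 8 and 0% of all 18834 genes, with 2 of 8 and 1908 of all genes at an unadjusted p under 0.05, while DESeq2 called 0 of 8 and 1 of all and limma voom 1 of 8 and 457 of all. For Ackr3 it was -1.02 ± 0.33 (adjusted p = 0.486), and limma voom called it at -1.31 (adjusted p = 0.0412). Without the first empty vector lung with vehicle, the one at 36.8 CPM of Ackr3, the same test called 1180 of all genes and 2 of the 8, Ackr3 at -1.36 (adjusted p = 0.0131) and Icam1 at -0.57 (adjusted p = 0.0477). Saracatinib against vehicle in empty vector lungs called 0 of 8 against a background of 0.00531%, with 2 of 8 at an unadjusted p under 0.05, and 0 by DESeq2 and by limma voom, and without that lung 1054 of all genes were called.

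The drug's effect in injured lungs was also compared between the models, bleomycin minus Ad-TGFβ1. That comparison called 0 of 8 genes against a background of 2.42%, with 2 of 8 at an unadjusted p under 0.05, and 0 by DESeq2 and by limma voom. With the pan-endothelial score as a covariate it called 1, Vwf at -0.68 (adjusted p = 0.031), against -0.36 without the covariate (adjusted p = 0.538). For Ackr1 the difference was -1.68 ± 0.51 (edgeR adjusted p = 0.0674), and it passed without bleomycin lung 1 with saracatinib (-1.92, adjusted p = 0.0283) and without bleomycin lung 1 with vehicle (-1.80, adjusted p = 0.0424). For Sele it was 1.45 ± 0.66 (adjusted p = 0.256), and for Ackr3 -0.49 ± 0.44, with an interval of -1.35 to 0.38 (adjusted p = 0.649). A difference that misses the threshold does not show that the drug acted alike in both models.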

How the data were processed

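Left lungs of 40 mice were sequenced, per the labels, with a stranded kit once ribosomal RNA had been depleted. The submitters' processing notes name STAR 2.6.1d, Picard, featureCounts of Subread 1.6.3 and edgeR, and the builds GRCm38 and mm9. Which strand setting was used in counting is not stated in the labels. The authors deposited raw read counts per gene, 1 table per model, and these were used as deposited, while the authors' TMM normalized tables were not used. Symbols were matched for 55450 of 55536 gene IDs, and positions come from GENCODE M21 (GRCm38).

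Counts were analysed in R 4.3.3 with edgeR 4.0.16. Genes with low counts were removed by filterByExpr and libraries were scaled by TMM, with factors of 0.909 to 1.07. Quasi-likelihood tests had 1 coefficient per group over the 20 libraries of a model, or over all 40 for comparisons between models. In each of 13 comparisons a gene was called at a Benjamini-Hochberg adjusted p under 0.05 over all genes. The standard error is the log2 fold change divided by the square root of F, and the procedure was tested on simulated data. CPM are counts scaled by library size and TMM factor, with a prior count of 2 on the log2 scale. Correlations are Pearson's over 40 libraries. The labels give separate mice as replicates, and each of 80 pairs of libraries within groups differed beyond counting noise (chi-square per degree of freedom of 4.29 or more).

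Alternatives were DESeq2 size factors, no filter, DESeq2 1.42.0, limma 3.58.1 voom with quality weights, a pan-endothelial covariate, the farthest library of each model left out, the compared groups alone, and each library left out in turn. The 8 genes and all gene lists were chosen with earlier results of these data known. The 8 genes are described in all comparisons, with up to 4 called genes of largest change per list at a mean of at least 1 CPM, and the 3 genes most correlated with each member. One of the genes closest to Icam1 is not reported here.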

Additional observations from a re-analysis of the deposited data

Results flagged for a closer look

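Of 64 sets of 5 lungs (8 genes in 8 groups) 6 held 1 lung far from the other 4. The rule flags about 1 in 20 sets when values are normally distributed and sets independent. These sets are CPM and share lungs, so that rate need not hold here, and an excess was not tested. Ackr3 was 141 CPM in bleomycin lung 3 with vehicle and 36.78 CPM in empty vector lung 1 with vehicle. Sele was 2.536 CPM in saline lung 4 with vehicle. Vwf was 1097 CPM in Ad-TGFβ1 lung 2 with saracatinib and 1163 CPM in empty vector lung 1 with saracatinib. Nr2f2 was 163.9 CPM in Ad-TGFβ1 lung 4 with saracatinib. Each of these 6 was the highest of its group.

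The response to injury differed between the models for Ackr1, by a log2 difference of 3.47 (bleomycin minus Ad-TGFβ1), and for Vcam1, by -1.02. Route, vector and count table differ with the model and cannot be told apart from it. Each injury is measured from its own control, and the controls differed in both genes. Empty vector minus saline, in lungs with vehicle, was 1.43 ± 0.51 for Ackr1 and -0.47 ± 0.13 for Vcam1.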

How the results depend on the processing

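Of 708 member values under other settings 661 kept their direction and their side of the threshold, as did 2444 of 2560 with 1 library left out. Of the counts of members called, 78 of 89 and 306 of 320 stayed within 1.5 times. The cause of a change was not tested, except that fitting the compared groups alone left Ackr1 untested by the filter in bleomycin against saline with saracatinib and in empty vector against saline. No paired analysis was possible because replicate numbers only follow accession order and pair no mice. Ackr1 and Sele, with as few as 1 and 3 counts in a library, are limited by depth.

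The count of members called was 1 for bleomycin against saline with saracatinib in the compared groups alone, and 1 for saracatinib in bleomycin lungs without the filter and in the compared groups alone. It was 1 for Ad-TGFβ1 against empty vector with saracatinib by limma voom and with the covariate, 1 for saracatinib in Ad-TGFβ1 lungs and for its interaction with Ad-TGFβ1 by limma voom, and 1, Vwf, for the drug's difference between models with the covariate. For empty vector against saline it was 2 without the filter, with the covariate and in the compared groups alone. With 1 library left out, the counts were 1 to 3 for saracatinib in bleomycin lungs, 0 to 1 for Ad-TGFβ1 with saracatinib, 0 to 2 for the interaction with Ad-TGFβ1, 0 to 1 for the drug's difference between models and 1 to 4 for empty vector against saline.

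The following changes turned sign, and all were uncalled before and after. With the covariate, bleomycin against saline with saracatinib gave Ackr3 0.068 and Vwf 0.124, the interaction with bleomycin Icam1 -0.035 and that with Ad-TGFβ1 Vwf 0.132. The covariate also gave Vwf 0.463 and Icam1 0.441 for the injuries' difference, Icam1 -0.106 and Nr2f2 -0.015 for the drug's difference, and Ackr3 0.061 and Icam1 0.236 for empty vector against saline. Without the farthest libraries, Vcam1 was -0.008 for bleomycin with saracatinib, Vwf 0.061 and Icam1 0.030 for saracatinib in saline lungs, and Sele -0.041 and Icam1 -0.087 for the interaction with bleomycin. Without them Vcam1 was -0.035 for saracatinib in empty vector lungs, Nr2f2 -0.016 for the interaction with Ad-TGFβ1, Icam1 0.079 for the injuries' difference and Vwf -0.020 for empty vector against saline. With limma voom, Icam1 was 0.016 for saracatinib in bleomycin and Vwf 0.015 in saline lungs, Sele -0.102 for the interaction with bleomycin, and Nr2f2 0.029 with Ad-TGFβ1. It also gave Vcam1 -0.001 for saracatinib in empty vector lungs, Nr2f2 -0.067 for the interaction with Ad-TGFβ1, Ackr3 -0.262 for the injuries' difference and Vwf -0.079 for empty vector against saline. Icam1 was 0.001 for the injuries' difference in the compared groups alone.

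With 1 library left out, some ranges crossed 0. For bleomycin against saline with saracatinib they were Vwf -0.166 to 0.091, Ackr3 -0.316 to 0.051 and Vcam1 -0.008 to 0.208. For saracatinib in bleomycin lungs they were Sele -0.346 to 0.462, Vcam1 -0.129 to 0.029 and Icam1 -0.122 to 0.016. In saline lungs they were Selp -0.074 to 0.321, Sele -0.459 to 0.261, Vwf -0.187 to 0.088 and Icam1 -0.301 to 0.030, and for the interaction with bleomycin Sele -0.438 to 0.660 and Icam1 -0.087 to 0.239. For Ad-TGFβ1 with saracatinib they were Ackr3 -0.211 to 0.006 and Ackr1 -0.383 to 0.217, for saracatinib in empty vector lungs Vcam1 -0.035 to 0.125, and for the interaction with Ad-TGFβ1 Nr2f2 -0.041 to 0.073 and Vwf -0.194 to 0.099. For the injuries' difference they were Icam1 -0.224 to 0.106, Ackr3 -0.100 to 0.615 and Vwf -0.216 to 0.068, for the drug's difference Nr2f2 -0.025 to 0.074 and Ackr3 -0.698 to 0.022, and for empty vector against saline Vwf -0.087 to 0.184 and Icam1 -0.327 to 0.004.

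Counts over all genes also moved. Saracatinib in bleomycin lungs called 2662 genes, 1801 to 4020 under other settings and 1328 without bleomycin lung 2 with saracatinib, and bleomycin with saracatinib 3006, 1811 to 4635 and 1682 without bleomycin lung 1 with saracatinib. Under other settings Ad-TGFβ1 against empty vector called 2787 to 7147, against 4839, and with saracatinib 357 to 1021, against 478. The injuries' difference called 2079 to 4733, against 2924, the drug's difference 171 to 746, against 472, and empty vector against saline 3152 to 6797, against 5112. The interaction with bleomycin called 70 to 806, against 200, and that with Ad-TGFβ1 0 to 457, against 0. Saracatinib called 6 to 103 in Ad-TGFβ1 lungs, against 18, 0 to 23 in saline lungs, against 1, and 0 to 7 in empty vector lungs, against 1. Without bleomycin lung 2 with vehicle the interaction with bleomycin called 35 and without bleomycin lung 1 with saracatinib 586, and the drug's difference called 106 without bleomycin lung 3 with vehicle and 807 without bleomycin lung 1 with saracatinib. Ad-TGFβ1 with saracatinib called 172 without Ad-TGFβ1 lung 3 with saracatinib and 806 without empty vector lung 1 with vehicle.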
